A study of Mus musculus with 30 samples.

Results

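The maturation of the wild-type mouse hippocampus was measured by setting 4 pools from P28 and P32 (P, days after birth; 2 pools at each age, here the late pools) against 3 pools from P10. These 7 of the 30 samples of the series were chosen by the genotype and age in their titles and by no measured value. Each held total RNA from the hippocampi of 2 wild-type male pups, offspring of C57BL/6 mice bred with mice heterozygous for Nf1, the gene of the Ras-inactivating protein neurofibromin. The remaining samples, wild-type pools of P15, P18 and P20 and heterozygous pools of all 6 ages, entered the shared estimate of the spread and are named where their own values are given. RNA was read on single-colour Affymetrix MG-U74Av2 arrays with 12488 probe sets, short oligonucleotide groups that report transcript levels. Most carry 1 gene symbol, while 396 carry several.

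Between these ages the rodent hippocampus adds and prunes synapses, inhibitory transmission matures, axons are myelinated and the production of new neurons narrows. Young neurons are known to keep chloride high through the importer encoded by Slc12a2, so that GABA excites them, and to lower it later through the exporter encoded by Slc12a5. Brain energy supply also moves from the ketone bodies of milk toward the full oxidation of glucose in mitochondria. The myelin, astrocyte and immature neuron genes that mark this period were used here only as a check, and the account below covers other gene families.

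Levels are the authors' intensities in arbitrary units on a linear scale. A difference averages the P28 mean and the P32 mean, with equal weight, and subtracts that of P10, on the log2 scale, so that 1 stands for a 2-fold rise and -1 for a 2-fold fall. Rose and fell are used for genes with a Benjamini-Hochberg adjusted p below 0.05 in limma's test over all probe sets tested. Because whole tissue was read, fewer cells of a type and less RNA per cell cannot be told apart in any of these values. P-values measure the spread between pools of 2 pups, and the sources used here name neither litters nor processing days.

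The arrays of each age resembled each other more than those of the other age. Across probe sets, log2 values correlated at 0.966 to 0.972 between late pools, 0.971 to 0.973 between P10 pools and 0.898 to 0.923 between the 2 sets. All 8 myelin genes measured above the intensity filter rose, with a median difference of 3.27, although a second probe set of Mag was called lower, at -0.80. Of 16 astrocyte genes 11 rose and 1 fell, although Glul, one of the 11, was called lower on a second probe set (-0.55), and of 22 immature neuron genes 19 fell and 0 rose. Of 12 genes of hippocampal neurons 5 rose and 2 fell. Among genes of tissues that border the hippocampus, 1 of 7 choroid plexus genes rose (Kl, 2.50) and 1 fell (Igfbp2, -0.79), with a mean log2 level of 7.01 to 7.74 in the late pools, against 5.82 to 6.84 in the P10 pools. Of 12 genes of neighbouring brain regions 1 rose and 3 fell (Oxt, -1.16; Cbln1, -1.10; Calb2, -0.71), and of 4 blood genes 1 rose. The ratio of 3′ to 5′ probe sets of the Actb control, a measure of RNA integrity, was 1.36 to 1.43 in the late pools, against 1.20 to 1.32 in the P10 pools, and that of the Gapdh control was 0.996 to 1.11 in the late pools, against 0.904 to 1.04 in the P10 pools. The part of these ratios was not tested beyond fits with the Gapdh or the Actb ratio as a covariate, which gave 2872 and 2803 calls.

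Of 7453 probe sets tested, limma called 2845 (38.2%) between the late pools and P10. With each gene represented by its brightest probe set, 2219 of 5694 genes were called (39.0%), 1086 higher (19.1%) and 1133 lower (19.9%). Over all genes the median difference was -0.02. Changes over 2-fold were fewer, with 205 probe sets higher (2.75%) and 310 lower (4.16%). Leaving out single pools gave between 2270 and 2607 calls. The late and P10 pools did not overlap for 3310 of the 7453 probe sets tested and for 2603 of the 2845 called. Separation of the ages, given for single genes below, is thus common to most calls and adds little to them. Sample titles carry a number and a letter that the sources used here do not explain, and keeping only number 1, which leaves 1 P10 pool, gave 1065 calls. The gene families below are read against these shares, since a share of calls near that of all genes says nothing about a family.

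**Figure D1:**
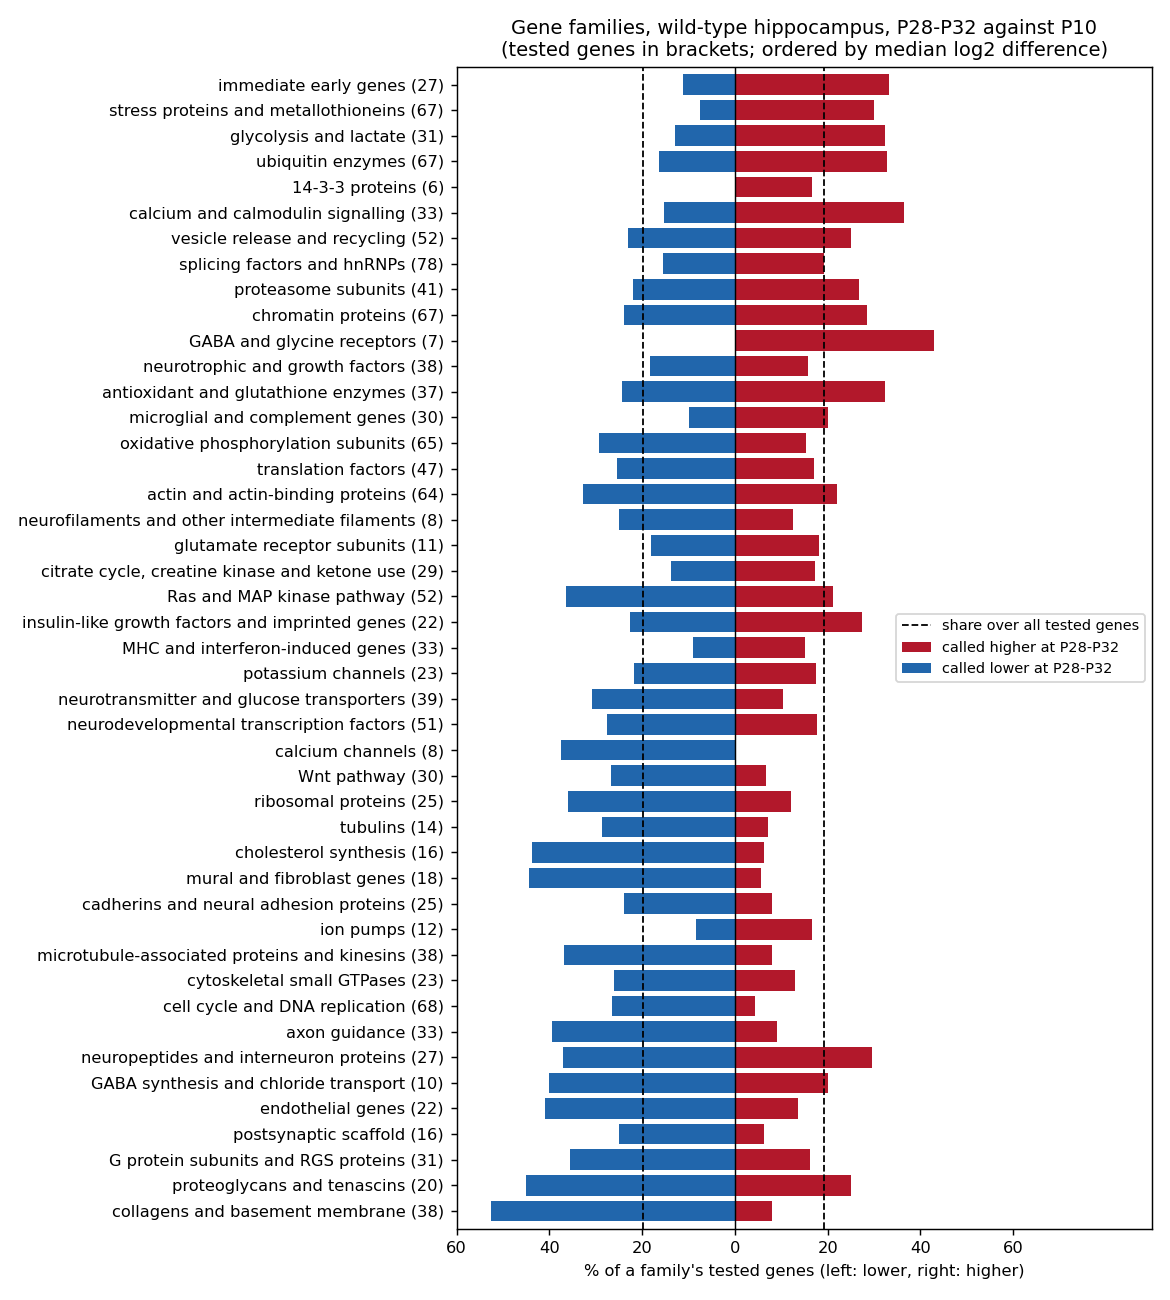
Share of the measured genes of each of 45 families that rose (bars to the right) or fell (bars to the left) in the wild-type late pools relative to P10, in percent, with the same shares over all genes, 19.1% higher and 19.9% lower, as dashed lines. Families are ordered by their median difference, highest at the top. Collagens, microtubule-associated proteins and cholesterol synthesis genes lean toward falls, and stress proteins, ubiquitin enzymes and immediate early genes toward rises.

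Genes of transmitter release were called in both directions. Of 52 genes of vesicle release and recycling 13 rose and 12 fell, with a median difference of 0.09. Snap25, the SNARE protein of the presynaptic membrane (chromosome 2, 136713439 to 136782428, GRCm38.p6, as for all gene positions here), measured 3443 and 3348 at P28 and 4142 and 3404 at P32, against 1876, 1976 and 2188 at P10. All late pools lay above all P10 pools, by a difference of 0.83 (SE 0.13, adjusted p = 2.66e-05). Stxbp3, a syntaxin-binding protein, measured 133 and 129 at P28 and 138 and 158 at P32, against 47.8, 67.1 and 58.2 at P10. It too separated the ages, with a difference of 1.28 (SE 0.19, adjusted p = 1.46e-05). Sypl, a synaptophysin-like membrane protein, ranged over 386 to 555 in the late pools, against 189.5 to 210.3 in the P10 pools and rose by 1.24 on the log2 scale. Stx1a, the syntaxin that pairs with Snap25, ran the other way and measured 266 and 295 at P28 and 239.5 and 278 at P32, against 529.5, 581 and 624 at P10. Its late pools were all lower than its P10 pools, with a difference of -1.10 (SE 0.20, adjusted p = 0.000138). The vesicle proteins Syp (-0.13, adjusted p = 0.642) and Syt1 (-0.06, adjusted p = 0.804) and the SNARE protein Vamp2 (0.18, adjusted p = 0.147) were not called, and a second probe set of Vamp2 stood at -0.82 and was called.

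Glutamate receptor subunits were called in both directions, and the few inhibitory receptor subunits that were called rose. Of 11 glutamate receptor genes 2 rose and 2 fell (median -0.07, and 0.08 after quantile normalization). Of 7 GABA and glycine receptor genes 3 rose and 0 fell (median 0.05), and 6 more on the array lay below the intensity filter. The glutamate receptor shares, 18.2% in each direction, are near those of all genes. Gria2, the AMPA receptor subunit that keeps the channel closed to calcium (chromosome 3, 80681450 to 80804227), measured 3413 and 3497 at P28 and 3714 and 2983 at P32, against 2316, 1962 and 2129 at P10. The ages did not overlap, and the difference of 0.67 (SE 0.10, adjusted p = 7.58e-06) was shared in sign by 2 further probe sets, at 0.46 each, both called. Grik5, a kainate receptor subunit, measured 197 and 208 at P28 and 96.0 and 183 at P32, against 512, 545 and 561 at P10. All late pools were lower, with a difference of -1.72 (SE 0.23, adjusted p = 2.67e-06) and with P32 pool 1a lowest, while a second probe set stood at -1.01. Of the NMDA receptor subunits known to take each other's place in development, Grin2b stood at -0.65 (adjusted p = 0.053) and Grin2a at -0.30 (adjusted p = 0.647), and neither was called. The AMPA receptor gene Gria1 stood at 0.44 (adjusted p = 0.197). Of the inhibitory receptor subunits, Gabrb1 rose by 0.40 and Glrb, the beta subunit of the glycine receptor, by 0.52. Gabra2 ranged over 70.4 to 264 in the late pools, against 38.1 to 59.5 in the P10 pools and had a difference of 1.55 (SE 0.31, adjusted p = 0.000339), but its call was lost with P28 alone (0.68).

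Postsynaptic scaffold genes had 1 rise and 4 falls among 16 (median -0.36). Dlg1, a scaffold of AMPA receptors, was the one that rose, at 483 to 605 in the late pools, against 225 to 322 in the P10 pools. Its difference was 0.88 (SE 0.14, adjusted p = 2.44e-05). Cnih2, an auxiliary subunit of AMPA receptors, measured 821 and 779.5 at P28 and 490.1 and 795 at P32, against 1320.0, 1536 and 1334 at P10. It was lower in all late pools, with a difference of -0.98 (SE 0.17, adjusted p = 7.65e-05) and with P32 pool 1a apart from the other late pools. Dlg4, the main scaffold of excitatory synapses, fell by 0.65 on the log2 scale (adjusted p = 0.0124), and this call was lost without P28 pool 1a (-0.54).

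Genes of GABA synthesis and chloride transport were called in both directions. Of 10 measured, 2 rose and 4 fell (median -0.27), and after quantile normalization 2 rose and 2 fell. Gad1, which makes GABA from glutamate (chromosome 2, 70561303 to 70602014), measured 1689.8 and 1761 at P28 and 1892 and 1993 at P32, against 1034, 959 and 947 at P10. Every late pool exceeded every P10 pool, by 0.90 (SE 0.10, adjusted p = 3.69e-07). Gad2, the second enzyme of this step, was dim and stood at 0.28 (adjusted p = 0.542). Slc12a2, the chloride importer (chromosome 18, 57878512 to 57946821), measured 828 and 964 at P28 and 729.8 and 957 at P32, against 383, 344 and 361 at P10. It was higher in all late pools, by 1.25 (SE 0.20, adjusted p = 3.53e-05), a direction opposite to the one described for neurons above. Glia and choroid plexus are known to carry this importer too, and their marker lists are given above. Their part was not tested. Slc12a5, the exporter, was close to the filter, with intensities of 20.7 to 46.6 in the late pools, against 34.8 to 53.4 in the P10 pools. The ages overlapped, and its difference of -0.45 was not called (adjusted p = 0.166). Slc4a3, a chloride and bicarbonate exchanger, fell by 1.05 on the log2 scale, with 417 to 483 in the late pools, against 908 to 973 in the P10 pools.

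**Figure D2:**
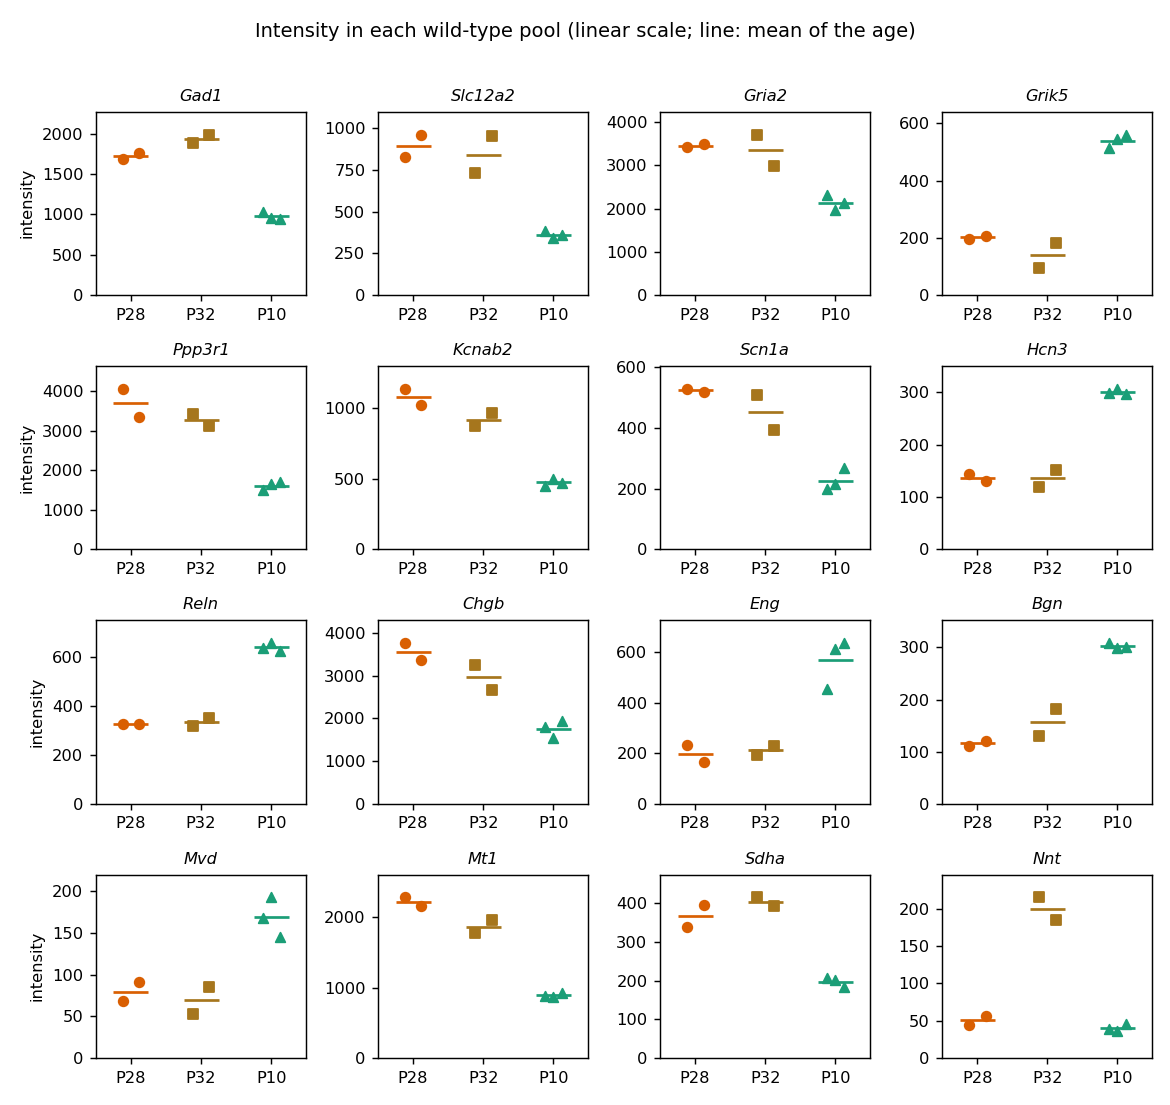
Intensity (arbitrary units, linear scale from 0) of 16 genes in each wild-type pool, with P28, P32 and P10 from left to right in every panel, 1 point per pool and a line at each age's mean. In every panel the P28 and P32 pools lie on one side of the P10 pools, except that for Nnt the P28 pools lie near the P10 pools and the P32 pools above both.

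Channel genes were called in both directions. Of 23 potassium and related channel genes 4 rose and 5 fell (median -0.14), of 8 calcium channel genes 3 fell and 0 rose (median -0.16), and of 2 sodium channel genes 1 rose. The potassium channel shares, 17.4% higher and 21.7% lower, are near those of all genes. Kcnab2, a cytoplasmic beta subunit of potassium channels (chromosome 4, 152390744 to 152477549), measured 1136 and 1023 at P28 and 873 and 964 at P32, against 451, 501 and 470.5 at P10. The late pools were all higher, by 1.07 (SE 0.16, adjusted p = 1.78e-05), and a second probe set rose by 0.84. Scn1a, the sodium channel of fast-spiking interneurons (chromosome 2, 66270781 to 66440837), measured 529 and 518 at P28 and 509 and 394 at P32, against 198, 214 and 267 at P10. It rose by 1.11 (SE 0.15, adjusted p = 3.64e-06), with 1.07 on a second probe set and with P32 pool 1b lowest of the late pools. Hcn3, a channel of the pacemaker current, measured 144 and 129.7 at P28 and 119 and 152 at P32, against 299, 307 and 297 at P10. It fell by 1.15 (SE 0.11, adjusted p = 3.68e-08) with no overlap. Kcnn1, a calcium-activated potassium channel, fell by 0.73 on the log2 scale, with 97.4 to 136 in the late pools, against 174 to 212 in the P10 pools. The P/Q-type calcium channel gene Cacna1a stood at -3.03, but it was dim in the late pools and the fall was -1.37 with log2(value + 32), still called.

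Calcium signalling genes were called mostly upward, with 12 rises and 5 falls among 33 (median 0.09). Ppp3r1, the regulatory subunit of the phosphatase calcineurin (chromosome 11, 17159298 to 17200380), measured 4059.9 and 3344 at P28 and 3424 and 3124 at P32, against 1499.5, 1644 and 1693 at P10. All late pools were higher, by 1.11 (SE 0.12, adjusted p = 1.83e-07). Ryr2, a calcium release channel of internal stores, measured 485 and 464 at P28 and 458 and 419 at P32, against 218, 228 and 275 at P10. It rose by 0.93 (SE 0.15, adjusted p = 2.28e-05). Hpca, the neuronal calcium sensor hippocalcin, rose by 0.66, while Camk2b, a subunit of the calmodulin kinase of synapses, stood at 0.14 and was not called (adjusted p = 0.17).

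Of 12 ion pump genes 2 rose (16.7%) and 1 fell (8.33%), below the shares of all genes (median -0.24). After quantile normalization 2 rose and 2 fell. Atp1b1, the beta subunit that brings the sodium pump to the membrane, ranged over 453 to 575 in the late pools, against 287 to 293 in the P10 pools. It rose by 0.81 (SE 0.13, adjusted p = 2.15e-05). Atp2a2, the calcium pump of the endoplasmic reticulum, rose by 0.62. Fxyd7, a brain regulator of the sodium pump (chromosome 7, 31042515 to 31051454), measured 153 and 118 at P28 and 90.9 and 123 at P32, against 770.3, 1023 and 962 at P10. This was among the largest falls of the array, -2.93 (SE 0.25, adjusted p = 7.48e-09), a level 7.64-fold lower in the late pools.

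G protein genes leaned downward. Of 31 genes of G protein subunits and RGS proteins, which speed the return of G proteins to rest, 11 fell and 5 rose (median -0.40). Gnb2, a beta subunit, measured 884 and 956 at P28 and 580.3 and 968 at P32, against 2105, 2612 and 2331 at P10. It fell by 1.50 (SE 0.21, adjusted p = 6.01e-06). The rises included Rgs14, a protein of pyramidal neurons of area CA2, which measured 779 and 689 at P28 and 601 and 757 at P32, against 382, 408 and 463 at P10. Its difference was 0.76 (SE 0.13, adjusted p = 6.83e-05). Rgs2 rose by 1.0 and Rgs8 by 0.58, while Rgs5, a marker of pericytes, fell by 1.13 on the log2 scale.

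Neuropeptide and interneuron genes split into 8 rises and 10 falls among 27 (median -0.27). Chgb, chromogranin B of dense core vesicles, measured 3771 and 3371 at P28 and 3259 and 2678 at P32, against 1796, 1537 and 1935 at P10. All late pools were higher, by 0.89 (SE 0.14, adjusted p = 1.72e-05). Calb1, the calcium buffer calbindin of dentate granule cells and some interneurons, measured 385 and 447 at P28 and 469 and 495 at P32, against 302, 286 and 298 at P10. It rose by 0.60 (SE 0.09, adjusted p = 9.61e-06). Pvalb, the calcium buffer of fast-spiking interneurons, rose by 0.47 (adjusted p = 0.00495), and this call was lost with P32 alone (0.34). Reln, the secreted guide of neuronal layering made by Cajal-Retzius cells and later by interneurons (chromosome 5, 21884454 to 22344705), measured 326 and 325 at P28 and 316 and 350.5 at P32, against 639, 657 and 626 at P10. It fell by 0.96 (SE 0.15, adjusted p = 1.69e-05). Sst, somatostatin, measured 1167 and 1237 at P28 and 716 and 919 at P32, against 1592, 2039 and 1786 at P10. The ages did not overlap and the difference was -0.86 (SE 0.16, adjusted p = 0.000174). Cort, the related peptide cortistatin, ranged over 43.5 to 174 in the late pools, against 299 to 428 in the P10 pools, a difference of -1.98 (SE 0.24, adjusted p = 9.82e-07) that was -1.29 with P28 alone and still called. Npy, another interneuron peptide, stood at -0.27 and was not called (adjusted p = 0.0554). The peptide gene Penk rose by 1.30 on 1 probe set, while a second stood at 0.01 and was not called, and the call was lost with P28 alone (0.65).

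Cytoskeletal families carried more falls than rises. Of 38 microtubule-associated protein and kinesin genes 14 fell and 3 rose (median -0.25), of 14 tubulin genes 4 fell and 1 rose (median -0.19, with 5 falls and 3 rises after quantile normalization), and of 64 actin and actin-binding genes 21 fell and 14 rose (median -0.05). Several of the falls, among them Stmn2, Tubb3, Tmsb10 and Marcksl1, also belong to the immature neuron list. Outside it, Map1lc3a, a light chain of microtubule-associated proteins that also coats autophagosomes (chromosome 2, 155276364 to 155278073), measured 372 and 423 at P28 and 302 and 499 at P32, against 1168, 1325 and 1276 at P10. It fell by 1.68 (SE 0.17, adjusted p = 1.05e-07). Tuba4a, an alpha-tubulin, was the one tubulin gene that rose, and measured 1062 and 876 at P28 and 1091 and 814 at P32, against 509, 488 and 497 at P10. Its difference was 0.94 (SE 0.13, adjusted p = 5.49e-06). The neurofilament genes Nefl (0.29) and Nefm (-0.11) and the related Ina (-0.03) were not called (adjusted p = 0.15, 0.743 and 0.841).

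The cytoplasmic actin gene Actb gave differing readings on the same arrays. Its brightest tested probe set measured 142.9 to 175.5 in the late pools, against 644 to 770.5 in the P10 pools, and a second measured 95.5 to 150.3 in the late pools, against 386 to 537 in the P10 pools. Both were called, at -2.20 and -1.97. The array's own control probe sets for Actb were far brighter and overlapped between the ages, with 6782 to 7730 at the 3′ end in the late pools, against 6713 to 7705 in the P10 pools. Their differences were 0.04, 0.05 and -0.10 for the 3′, middle and 5′ probe sets. The fall of Actb was thus not seen by the brightest probe sets of the gene, and it is given here only as a reading of 2 probe sets.

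Small GTPases of the cytoskeleton had 6 falls and 3 rises among 23 (median -0.26). Rac3, a Rac of developing neurons (chromosome 11, 120721468 to 120723969), measured 11.0 and 41.6 at P28 and 22.7 and 49.9 at P32, against 189.6, 251 and 224 at P10. It fell by 3.04 (SE 0.36, adjusted p = 5.31e-07), and the difference was -2.04 with log2(value + 32). Kalrn, an exchange factor that turns on Rac in dendritic spines, measured 2468 and 1840.4 at P28 and 2306 and 1371 at P32, against 743, 611 and 855 at P10. It rose by 1.42 (SE 0.20, adjusted p = 6.95e-06). Tiam1, another activator of Rac, rose by 0.75, while Arhgef7, an exchange factor bound to the kinase Pak, fell by 0.94 on the log2 scale and Pak3 itself fell by 0.85.

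Axon guidance genes leaned downward, while the share of adhesion genes that fell was near that of all genes. Of 33 axon guidance genes 13 fell and 3 rose (median -0.27), and of 25 cadherins and neural adhesion genes 6 fell and 2 rose (median -0.24). Plxnd1, a semaphorin receptor, measured 123 and 107 at P28 and 108 and 110.1 at P32, against 242, 255 and 314 at P10. It fell by 1.26 (SE 0.19, adjusted p = 1.05e-05). Unc5c, a receptor for the repulsive action of netrin, measured 263 and 246 at P28 and 300.0 and 185 at P32, against 134, 133 and 158 at P10. It rose by 0.79 (SE 0.15, adjusted p = 0.000222), against the direction of most called members. Thy1, a surface protein of mature neurons, rose by 0.58, with 2823 to 2999 in the late pools, against 1819.8 to 2054 in the P10 pools. L1cam, an adhesion protein of growing axons, stood at -1.74, or -1.09 with log2(value + 32), both called.

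Matrix genes were called mostly lower. Of 38 collagen and basement membrane genes 20 fell and 3 rose (median -0.62), and of 20 proteoglycan and tenascin genes 9 fell and 5 rose (median -0.42). Bgn, the small proteoglycan biglycan (chromosome X, 73483601 to 73495936), measured 111 and 119.8 at P28 and 131 and 182 at P32, against 308, 298 and 301 at P10. It fell by 1.18 (SE 0.19, adjusted p = 2.54e-05), with -0.96 on a second probe set. Col1a1, the main collagen of connective tissue (chromosome 11, 94936224 to 94953042), measured 175 and 120.2 at P28 and 163 and 143 at P32, against 287, 304 and 379 at P10. It fell by 1.11 (SE 0.16, adjusted p = 1.12e-05), with -1.65 on a second probe set. Serpinh1, the chaperone that folds collagen, measured 97.8 and 112 at P28 and 104 and 117 at P32, against 309, 306 and 295 at P10. It fell by 1.50 (SE 0.26, adjusted p = 7.33e-05). Col18a1, a collagen of vascular basement membranes, fell by 1.77 on the log2 scale and Tnc, the matrix protein tenascin C of developing brain, fell by 1.52. Sparcl1, an astrocyte protein that promotes synapses, rose by 0.60.

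Genes of blood vessels were also called lower. Of 22 endothelial genes 9 fell and 3 rose (median -0.35, with 7 falls and 4 rises after quantile normalization), with a mean log2 level of 6.48 to 6.68 in the late pools, against 6.88 to 7.05 in the P10 pools. Of 18 genes of mural cells and fibroblasts 8 fell and 1 rose, with a mean log2 level of 6.87 to 7.22 in the late pools, against 7.31 to 7.70 in the P10 pools. Eng, an endothelial coreceptor for growth factors of the TGF-beta family (chromosome 2, 32646595 to 32682669), measured 231 and 164 at P28 and 194 and 228 at P32, against 455, 610.2 and 635 at P10. It fell by 1.47 (SE 0.17, adjusted p = 6.04e-07). Cldn5, the tight junction protein of the blood-brain barrier, ranged over 196 to 332 in the late pools, against 498 to 585 in the P10 pools and had a difference of -1.05, or -0.69 with P32 alone, both called. Slc2a1, the glucose transporter of that barrier, measured 164 and 171 at P28 and 147 and 158 at P32, against 78.7, 95.5 and 77.8 at P10. It rose by 0.93 (SE 0.18, adjusted p = 0.000232), against the direction of most called endothelial genes. Abcb1a, the drug efflux pump of the barrier, rose too, by 1.12, or 0.62 with log2(value + 32). The mural and fibroblast list includes Col1a1 and other collagen genes, and the part of vessel and fibroblast cells in the falls of matrix genes was not tested.

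**Figure D3:**
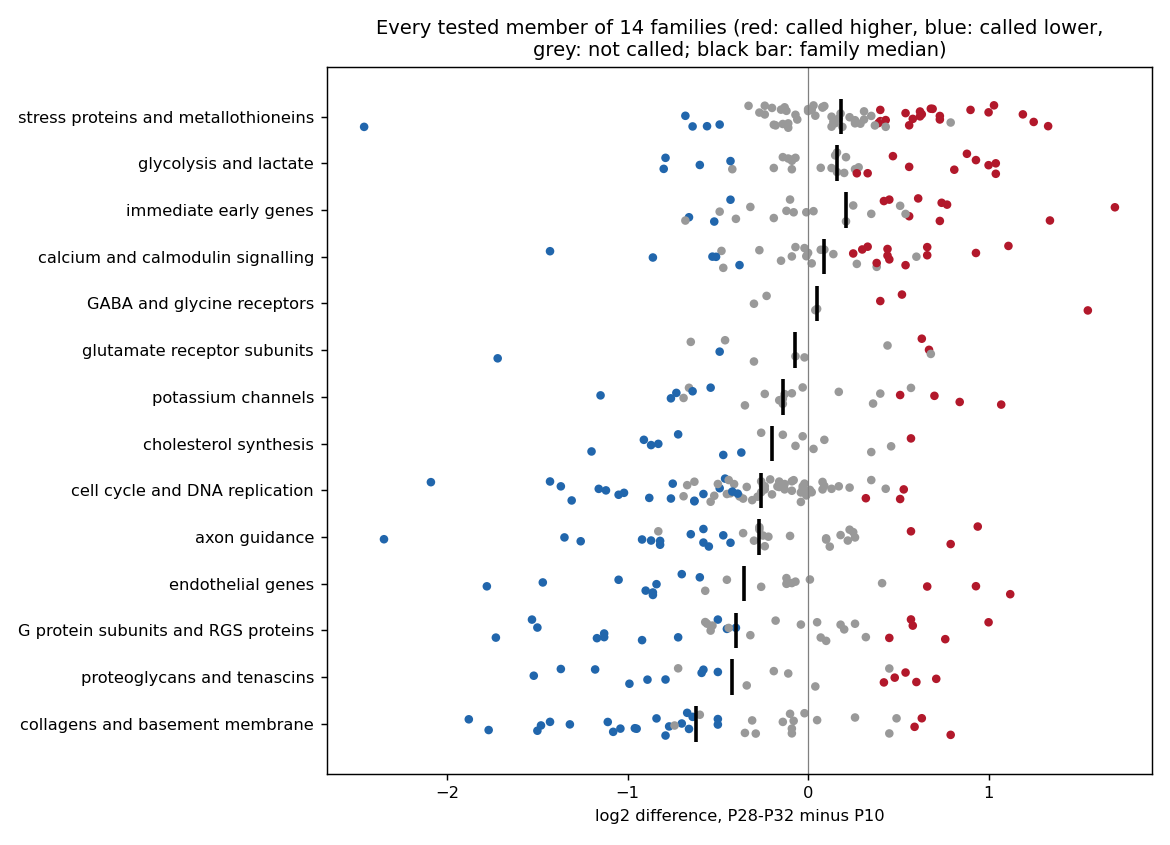
Difference between the late and P10 pools (log2 scale) for each measured gene of 14 families, with genes called higher in red, genes called lower in blue, uncalled genes in grey and a black bar at the family's median. The medians run from 0.21 for immediate early genes and 0.18 for stress proteins to -0.62 for collagens and basement membrane. Every family but the GABA and glycine receptors holds genes called in both directions.

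Transcription factors of neural development were called in both directions too. Of 51 measured, 14 fell and 9 rose (median -0.15), and after quantile normalization 10 fell and 8 rose. Id4, an inhibitor of basic helix-loop-helix factors, measured 442 and 403 at P28 and 509.6 and 594 at P32, against 214, 228 and 198 at P10. It rose by 1.18 (SE 0.14, adjusted p = 4.99e-07). Klf9, a factor induced by thyroid hormone, rose by 0.72 and Cited2 by 0.82. Nfix, a nuclear factor of the late phase of hippocampal development, measured 1216 and 1169.8 at P28 and 843 and 796 at P32, against 2175, 2035 and 2053 at P10. It fell by 1.08 (SE 0.17, adjusted p = 2.19e-05), with -1.60 on a second probe set. Neurod1, a factor of new granule neurons, fell by 1.14 on the log2 scale. Of 30 Wnt pathway genes 8 fell and 2 rose (median -0.17), and after quantile normalization 5 fell. The ligand gene Wnt7b stood at -2.55, or -1.04 with log2(value + 32), both called.

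Among insulin-like growth factor and imprinted genes 6 rose and 5 fell of 22 (median -0.11). Impact, an imprinted gene whose product restrains a kinase that halts translation (chromosome 18, 12954690 to 12992950), measured 351 and 206 at P28 and 216 and 292 at P32, against 52.3, 57.2 and 62.3 at P10. It rose by 2.19 (SE 0.33, adjusted p = 1.73e-05), to a level 4.56-fold higher. Igf2, the fetal growth factor (chromosome 7, 142650768 to 142666816), measured 604 and 720.5 at P28 and 703 and 1096 at P32, against 1627, 1279.5 and 1919 at P10. It fell by 1.06 (SE 0.21, adjusted p = 0.0003), while Igf1 stood at -0.23 and was not called (adjusted p = 0.164). Igf2 is known to be made in choroid plexus and is itself on the mural and fibroblast list, both given above, and the part of those cells was not tested. Of 38 neurotrophic and growth factor genes 6 rose (15.8%) and 7 fell (18.4%), near the shares of all genes (median 0.05). Fgf1 rose by 0.74, and Fgf13, an intracellular member of the family that binds sodium channels and microtubules, measured 50.5 and 44.7 at P28 and 46.1 and 45.2 at P32, against 159.8, 206 and 217 at P10. It fell by 2.05 (SE 0.18, adjusted p = 1.12e-08). Bdnf, the neurotrophin of activity-dependent plasticity, rose by 0.61 (adjusted p = 0.0129), a call lost with P32 alone (0.36).

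Cell cycle genes had 18 falls and 3 rises among 68 (median -0.26). Cks1b, a subunit of cyclin-dependent kinases, measured 23.3 and 35.0 at P28 and 29.6 and 26.6 at P32, against 133, 117 and 111 at P10. Its late pools were all lower, with a difference of -2.09, or -1.33 with log2(value + 32), both called. Cenpb, a centromere protein, ranged over 48.6 to 109 in the late pools, against 204 to 218 in the P10 pools and fell by 1.31 (SE 0.20, adjusted p = 2.3e-05). Chromatin genes were called in both directions, 19 up and 16 down of 67 (median 0.06). Hmgb3, a chromatin protein of dividing and stem cells, measured 455 and 458 at P28 and 425 and 537 at P32, against 811, 914 and 933 at P10. It fell by 0.92 (SE 0.13, adjusted p = 7.64e-06). Ezh1, the histone methyltransferase of resting cells, measured 128 and 178 at P28 and 157 and 181 at P32, against 57.6, 64.2 and 61.2 at P10. It rose by 1.39 (SE 0.21, adjusted p = 1.16e-05). Among linker histones, H1f2 rose by 1.27 and H1f10 fell by 1.42 on the log2 scale.

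Energy genes were called in opposite directions within single pathways. Of 65 genes of the respiratory chain 19 fell and 10 rose (median -0.03). Sdha, the flavoprotein of complex II and of the citrate cycle (chromosome 13, 74322255 to 74350240), measured 339.7 and 395 at P28 and 415 and 393 at P32, against 206, 201 and 184 at P10. It rose by 0.97 (SE 0.12, adjusted p = 1.91e-06). Suclg1, the citrate cycle enzyme that precedes it, measured 787 and 813 at P28 and 791 and 922 at P32, against 452, 466 and 358 at P10. It rose by 0.97 (SE 0.10, adjusted p = 9.84e-08). Ndufb9 of complex I rose by 0.64 and Cox7a2l by 0.64. Atp5mpl, a small subunit of ATP synthase, measured 1200.4 and 1276 at P28 and 1032 and 1247 at P32, against 2389.5, 2438 and 2469 at P10. It fell by 1.04 (SE 0.13, adjusted p = 1.04e-06), and Atp5e of the same enzyme fell by 1.06 on the log2 scale. Of 29 citrate cycle, creatine kinase and ketone genes 5 rose (17.2%) and 4 fell (13.8%), below the shares of all genes (median -0.08). Glud1, glutamate dehydrogenase, fell by 0.65 on the log2 scale.

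Glycolysis and glycogen genes had 10 rises and 4 falls among 31 (median 0.16). Gpd1, which links glycolysis to glycerol phosphate, measured 385 and 366 at P28 and 237 and 333 at P32, against 143, 207 and 134 at P10. It rose by 1.04 (SE 0.20, adjusted p = 0.000279). Pygm, a glycogen phosphorylase, measured 108 and 112 at P28 and 109 and 111 at P32, against 55.3, 47.4 and 58.6 at P10. It rose by 1.04 (SE 0.17, adjusted p = 5.28e-05). Ldha, the lactate dehydrogenase subunit that favours lactate, fell by 0.43 on the log2 scale and Hk1, the main hexokinase of brain, fell by 0.80. Of 39 neurotransmitter and glucose transporter genes 12 fell and 4 rose (median -0.14), with the creatine transporter gene Slc6a8 rising by 0.67 and the neuronal glutamate transporter gene Slc1a1 by 0.57.

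Cholesterol synthesis genes were called mostly lower. Of 16 measured, 7 fell and 1 rose (median -0.20), and the genes with the largest falls encode both early and late steps. Mvd, which makes isopentenyl diphosphate from mevalonate diphosphate, measured 68.1 and 91.1 at P28 and 52.5 and 85.7 at P32, against 168, 193 and 145 at P10. It fell by 1.20 (SE 0.19, adjusted p = 1.91e-05). Nsdhl, which removes methyl groups from sterols, measured 142 and 159 at P28 and 127 and 148 at P32, against 256, 286 and 266 at P10. It fell by 0.91 (SE 0.12, adjusted p = 2.19e-06), with -0.75 and -0.73 on 2 further probe sets. Mvk, mevalonate kinase, fell by 0.83 on the log2 scale, and Tm7sf2, a sterol reductase, fell by 0.87, with -1.41 on a second probe set. The promoters of Mvd and Nsdhl are shown because these genes had the largest falls of the pathway and hold the CCAAT box, a motif that factor NF-Y binds beside the sterol response elements of this pathway. They span 250 bases before to 50 bases after the RefSeq gene start on GRCm38.p6, at chr8:122443373-122443672 (minus strand) for Mvd and chrX:72918271-72918570 (plus strand) for Nsdhl, 5′ to 3′ in the direction of transcription. Capitals mark CCAAT on either strand, which gives 2 matches in Mvd and 4 in Nsdhl.
Mvd: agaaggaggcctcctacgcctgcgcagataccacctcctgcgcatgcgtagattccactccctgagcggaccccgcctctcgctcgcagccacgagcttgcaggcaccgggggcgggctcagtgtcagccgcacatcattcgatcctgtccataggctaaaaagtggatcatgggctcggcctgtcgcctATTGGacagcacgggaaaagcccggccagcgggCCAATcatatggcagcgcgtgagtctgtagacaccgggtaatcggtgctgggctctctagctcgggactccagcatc
Nsdhl: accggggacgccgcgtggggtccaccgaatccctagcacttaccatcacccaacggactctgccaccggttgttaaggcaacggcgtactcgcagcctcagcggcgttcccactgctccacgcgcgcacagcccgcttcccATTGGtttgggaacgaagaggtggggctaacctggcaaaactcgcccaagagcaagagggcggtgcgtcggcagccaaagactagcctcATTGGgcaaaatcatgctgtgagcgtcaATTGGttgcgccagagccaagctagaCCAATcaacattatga

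At least 1 CCAAT was present in 12 of the 13 tested cholesterol genes with a promoter in the RefSeq table. Of these 13, it was in all 4 that fell and in 8 of the 9 that did not, so the motif did not separate them, and in 37.9% of the promoters of 27025 genes.

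Genes of protein synthesis and breakdown were called in both directions. Of 25 ribosomal protein genes 9 fell and 3 rose (median -0.18), although probe sets of such genes can also detect near-identical copies. Rplp0, a protein of the ribosomal stalk, measured 2415 and 2327 at P28 and 2086 and 2145 at P32, against 4116, 4231 and 4427 at P10. It fell by 0.93 (SE 0.10, adjusted p = 1.01e-07), while Rpl19 rose by 0.37. Of 47 translation factor genes 12 fell and 8 rose (median -0.03), and after quantile normalization 8 fell and 9 rose. Eef1a2, the elongation factor of neurons and muscle (chromosome 2, 181141758 to 181157015), measured 854 and 1037 at P28 and 652 and 917 at P32, against 2696, 3317 and 3169 at P10. It fell by 1.84 (SE 0.21, adjusted p = 3.44e-07). Eif4a2, an initiation helicase, rose by 0.62 and Eif4g3, an initiation scaffold, by 0.67. Splicing and hnRNP genes had 15 rises (19.2%) and 12 falls (15.4%) among 78, near the shares of all genes (median 0.07). Hnrnph2 stood at 0.67 and Snrpc at -0.75, both called.

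Of 41 proteasome genes 11 rose (26.8%) and 9 fell (22.0%), against 19.1% and 19.9% of all genes (median 0.07). Psmb7, a subunit of the catalytic core, measured 944 and 1002 at P28 and 1069.9 and 1012 at P32, against 637, 731 and 631 at P10. It rose by 0.60 (SE 0.09, adjusted p = 1.54e-05). Psmb3 of the same core fell by 0.65 on the log2 scale and the activator subunit Psme1 fell by 0.86. Ubiquitin enzymes leaned upward, with 22 rises and 11 falls among 67 (median 0.12). Uchl5, a deubiquitinase of the proteasome, measured 165 and 135 at P28 and 209 and 148 at P32, against 65.4, 66.9 and 69.4 at P10. It rose by 1.27 (SE 0.17, adjusted p = 2.92e-06). Ube2b, a conjugating enzyme, rose by 0.76 and Fbxw7, a substrate receptor for cyclin E and Notch, by 0.86. Uchl1, the abundant deubiquitinase of neurons, measured 1352 and 1374 at P28 and 1184 and 1574 at P32, against 2346, 2575 and 2519.6 at P10. It fell by 0.86 (SE 0.14, adjusted p = 2.62e-05).

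Stress proteins were called mostly upward, with 20 rises and 5 falls among 67 (median 0.18). Dnajb2, a neuronal cochaperone, measured 207 and 251 at P28 and 339 and 328 at P32, against 123, 97.2 and 109.9 at P10. It rose by 1.33 (SE 0.18, adjusted p = 3.33e-06). Hspa1b, an inducible heat shock protein, measured 101 and 101 at P28 and 106 and 103 at P32, against 47.2, 38.7 and 44.0 at P10. It rose by 1.25 (SE 0.17, adjusted p = 2.66e-06). The metallothioneins, small proteins that bind zinc and copper, were chosen as a trio after their values were seen. Mt1 (chromosome 8, 94178883 to 94180327) measured 2280.3 and 2156 at P28 and 1771 and 1960.4 at P32, against 885, 871 and 923 at P10. It rose by 1.19 (SE 0.16, adjusted p = 3.44e-06). Its neighbour Mt2 (chromosome 8, 94172618 to 94173567) measured 3077 and 2655 at P28 and 2521 and 2261 at P32, against 1243, 1324 and 1367 at P10. It rose by 1.0 (SE 0.10, adjusted p = 1.05e-07). Mt3, the brain member of the same cluster (chromosome 8, 94152607 to 94154148), measured 2137 and 1934 at P28 and 1808 and 2244 at P32, against 1995, 1991 and 2075 at P10. Its ages overlapped, and its difference was 0.00 (95% confidence interval -0.25 to 0.26, adjusted p = 0.99).

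The 3 metallothionein promoters are shown because these neighbouring genes differed in their change. They are RefSeq windows of the same span and build, at chr8:94178839-94179138 (plus strand) for Mt1, chr8:94172368-94172667 (plus strand) for Mt2 and chr8:94152357-94152656 (plus strand) for Mt3. The window of Mt1 is set on a start that lies inside the outer bounds of the gene given above. Capitals mark the core of the metal response element, which the zinc-sensing factor MTF1 binds, searched as TGCACNC or TGCGCNC on both strands, with N any base.
Mt1: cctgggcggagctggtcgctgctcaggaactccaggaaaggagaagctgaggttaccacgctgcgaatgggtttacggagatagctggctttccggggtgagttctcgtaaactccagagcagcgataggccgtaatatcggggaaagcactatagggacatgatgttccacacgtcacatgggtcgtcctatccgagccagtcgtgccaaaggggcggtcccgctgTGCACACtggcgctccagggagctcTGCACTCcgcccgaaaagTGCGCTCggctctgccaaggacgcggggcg
Mt2: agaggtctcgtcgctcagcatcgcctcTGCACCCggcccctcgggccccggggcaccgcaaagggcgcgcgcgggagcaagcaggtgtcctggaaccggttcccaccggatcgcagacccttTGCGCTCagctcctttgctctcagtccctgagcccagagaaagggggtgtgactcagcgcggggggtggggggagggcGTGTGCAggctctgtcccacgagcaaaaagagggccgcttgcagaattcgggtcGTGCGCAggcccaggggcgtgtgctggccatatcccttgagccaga
Mt3: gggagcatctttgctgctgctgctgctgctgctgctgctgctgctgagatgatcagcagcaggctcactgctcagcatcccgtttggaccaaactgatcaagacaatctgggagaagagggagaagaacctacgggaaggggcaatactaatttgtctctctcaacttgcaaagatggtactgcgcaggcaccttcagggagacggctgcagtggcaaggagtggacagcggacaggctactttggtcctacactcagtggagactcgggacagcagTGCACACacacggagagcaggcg

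Mt1 held 3 matches, Mt2 held 4 and Mt3 held 1. Of all 27025 promoters, 25.6% held at least 1 match, 2.0% at least 3 and 0.503% at least 4. A match is a run of letters and was not tested as a binding site in these samples.

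Antioxidant and glutathione genes had 12 rises and 9 falls among 37 (median 0.04). Gclc, the catalytic subunit of the first step of glutathione synthesis, measured 231 and 216 at P28 and 200.3 and 178 at P32, against 112, 110.3 and 111 at P10. It rose by 0.88 (SE 0.12, adjusted p = 2.24e-06). Gsta4, a transferase that clears lipid aldehydes, rose by 1.28. Mgst3, a microsomal transferase, measured 471 and 518 at P28 and 312 and 345 at P32, against 1134, 1907 and 1615 at P10. It fell by 1.91 (SE 0.21, adjusted p = 2.62e-07). Txn1, thioredoxin, fell by 0.80 on the log2 scale.

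Immune genes were called in both directions. Of 30 microglial and complement genes 6 rose and 3 fell (median 0.01), and of 33 MHC and interferon-induced genes 5 rose and 3 fell (median -0.11). In both families the share that fell was below that of all genes. The share that rose was near that of all genes for the microglial family and below it for the MHC family. Ctss, a lysosomal protease of microglia (chromosome 3, 95526786 to 95556405), measured 623 and 659 at P28 and 752 and 674 at P32, against 249.7, 312 and 313 at P10. It rose by 1.22 (SE 0.12, adjusted p = 6.68e-08). Cx3cr1, the fractalkine receptor of microglia, fell by 0.75 on the log2 scale, with 54.5 to 87.9 in the late pools, against 106 to 141 in the P10 pools. These 2 microglial genes therefore went in opposite directions. Ifi27, an interferon-induced gene, rose by 1.23.

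Immediate early genes, which neurons switch on with activity, had 9 rises and 3 falls among 27 (median 0.21), and 11 rises and 1 fall after quantile normalization. Egr1 (chromosome 18, 34861207 to 34864956) measured 632 and 559 at P28 and 386 and 465 at P32, against 211, 192 and 191 at P10. All late pools were higher, by 1.34 (SE 0.18, adjusted p = 3.11e-06). Ptgs2, the inducible cyclooxygenase, was dim and stood at 1.70, or 0.72 with log2(value + 32), both called. Of 52 genes of the Ras and MAP kinase pathway, on which neurofibromin acts, 11 rose and 19 fell (median -0.09). After quantile normalization 13 rose and 15 fell. Map2k1, a kinase that activates ERK (chromosome 9, 64185769 to 64253605), measured 836 and 825 at P28 and 882 and 918 at P32, against 305, 327 and 306 at P10. It rose by 1.47 (SE 0.14, adjusted p = 3.45e-08). Rasgrf1, a calcium-driven activator of Ras in neurons, measured 714 and 751 at P28 and 616 and 649 at P32, against 252, 294 and 265 at P10. It rose by 1.33 (SE 0.20, adjusted p = 1.29e-05). Rasgrp2, also listed in this pathway, fell by 1.48 on the log2 scale and Ralgds, an effector of Ras, fell by 0.87. Of 6 genes of 14-3-3 proteins 1 rose (Ywhah, 0.33).

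Outside the myelin, astrocyte and immature neuron lists, the largest rises among genes reaching an intensity of 128 were led by genes that oligodendrocytes are known to express. Gsn, the actin-severing protein gelsolin (chromosome 2, 35256359 to 35307902), measured 765 and 703 at P28 and 750.2 and 720.4 at P32, against 64.0, 56.5 and 76.4 at P10. It rose by 3.49 (SE 0.30, adjusted p = 7.48e-09), to a level 11.3-fold higher. Erbb3, a neuregulin receptor, stood at 3.03 (1.94 with log2(value + 32), both called), Septin4, a septin, at 2.46, Lpar1, a receptor for lysophosphatidic acid, at 2.20, Evi2a, which lies in an intron of Nf1, at 2.38 and Apod, apolipoprotein D, at 1.89. The myelin list had a mean log2 level of 9.40 to 9.64 in the late pools, against 6.19 to 6.61 in the P10 pools, and its part in these rises was not tested. Kl, the membrane protein klotho, which is on the choroid plexus list above, stood at 2.50 (1.58 with log2(value + 32), both called). Rnf13, a ubiquitin ligase, rose by 1.74, with 0.74 on a second probe set, and Clic4, a chloride channel family member, by 1.74, although 1 of its 2 other probe sets stood at 0.10 and was not called.

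Among genes reaching the same intensity and outside those lists, read by each gene's brightest probe set, the largest falls were of Erdr1, Rac3 and Fxyd7. Erdr1 measured 189 and 156 at P28 and 37.3 and 82.2 at P32, against 941, 939 and 1095 at P10. It fell by 3.34 (SE 0.54, adjusted p = 3.37e-05), and its second probe set stood at -1.10. Pcsk1n, an inhibitor of prohormone processing, measured 417 and 506 at P28 and 173 and 551 at P32, against 1477, 1757 and 1741 at P10. It fell by 2.13 (SE 0.28, adjusted p = 2.24e-06). St8sia2, the enzyme that adds polysialic acid to Ncam1 in young neurons, fell by 2.20 on the log2 scale, Nrep, a protein of regenerating neurons, fell by 2.08, and Impdh1, of guanine nucleotide synthesis, stood at -2.27, or -1.51 with log2(value + 32), both called. Snrp1c-ps2, annotated as a pseudogene, stood at -1.99, and its call was lost with P28 alone (-1.51).

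The wild-type pools of P15, P18 and P20 placed these changes within the span. For the 205 probe sets over 2-fold higher, the median share of the whole P10-to-late difference already present was 50.2% at P15 (4 pools) and 75.1% at P18 and P20 (4 pools together). For the 310 over 2-fold lower the median shares were 25.9% and 38.3%. Of the rises, 6 (2.9%) had covered under 25% of the way by P18 and P20 and 103 (50.2%) over 75%, while of the falls 117 (37.7%) had covered under 25% and 45 (14.5%) over 75%. By P18 and P20, Cacna1a had covered -1.2% of its fall, Pcsk1n -8.3% and Grik5 3.1%, although a second probe set of Grik5 had covered 51.7%. Tnc had covered 107.5% and Stmn2 61.8%, and Nfix gave 82.5% on its brightest probe set and -53.9% on another. The 3′ to 5′ ratios of the P18 and P20 pools, 1.07 to 1.30 for Actb and 0.793 to 0.855 for Gapdh, lay below those of the late pools given above, and their part in this course was not tested. In heterozygous pools the 117 late falls, chosen by their wild-type values, had a median late minus P18-and-P20 difference of -0.22. Of the 117, 84 were below 0, and the median over all probe sets tested was -0.01. With heterozygous P20 alone in place of P18 and P20, the median of the 117 was -0.35. The 6 late rises had a heterozygous median of -0.19, with 2 of the 6 above 0. Heterozygous P18 pool 1b had 3′ to 5′ ratios of 2.20 for Actb and 1.40 for Gapdh, whose part was not tested. At P20 the wild-type titles carry the number 2, whereas those of P18, P28 and P32 carry 1, so title number and age cannot be told apart at P20.

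**Figure D4:**
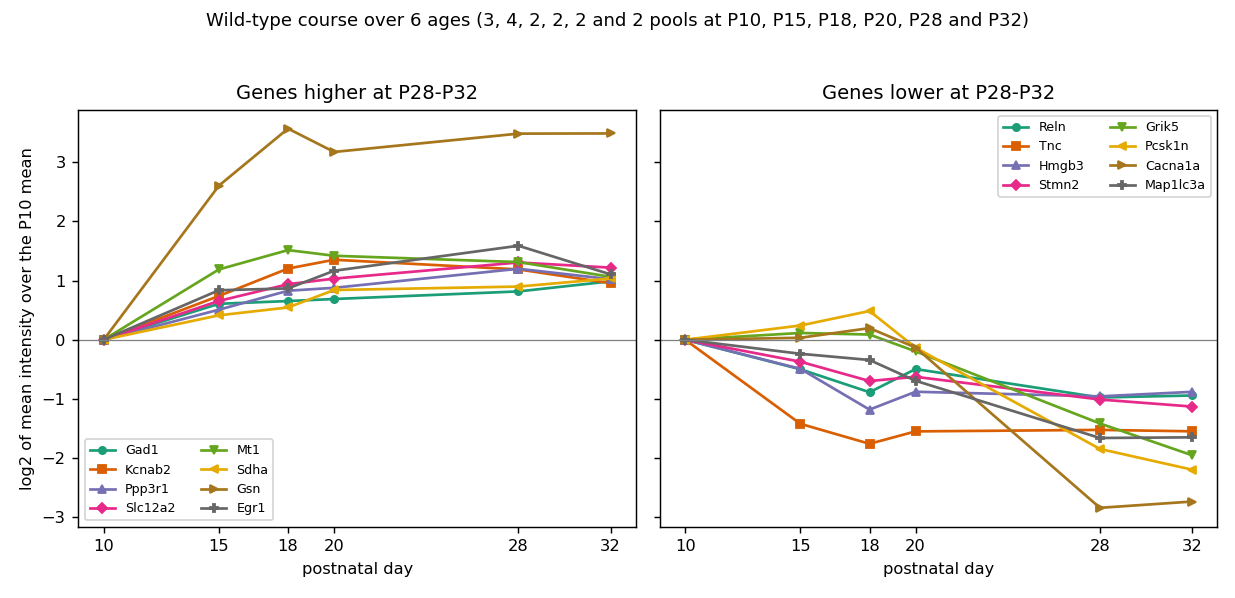
Log2 of the mean intensity over the P10 mean for 8 genes that rose (left) and 8 that fell (right), by age from P10 (3 wild-type pools) and P15 (4) through P18 and P20 to P28 and P32 (2 each). The rising genes lie above their P10 level from P15 on, while Grik5, Pcsk1n and Cacna1a lie near theirs until P20 and far below it at P28 and P32.

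The late ages themselves differed little. For P32 minus P28 in wild type limma called 5 probe sets (0.0671%), with 466 at an unadjusted p below 0.05. Nnt, the mitochondrial transhydrogenase that makes NADPH, measured 215 and 185 at P32, against 44.7 and 55.8 at P28. Its difference was 2.0 (SE 0.31, adjusted p = 0.00821), and the P28 pools lay close to the P10 pools, at 38.7, 36.2 and 45.2. The rise of Nnt over the whole span, 1.32, rested on the P32 pools. Anxa5 rose by 0.74 and Col7a1 fell by 1.51 on the log2 scale, and 2 probe sets without a single gene name stood at -4.0 and -0.64. Without P28 pool 1b none of the 5 was called, and the number of calls was 3 or 4 without another of these pools.

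The same span was measured in heterozygous pools, 3 at P28 and P32 and 4 at P10, whose arrays are separate from those above. There limma called 2718 probe sets (36.5%). Of the 2845 wild-type calls, 2773 (97.5%) had the same sign in heterozygotes, against 83.0% of all probe sets tested. The 1948 probe sets called in the same direction in both genotypes made up 68.5% of the wild-type calls and 71.7% of the heterozygous calls, and 3 were called in opposite directions. For the difference in maturation between the genotypes limma called 0 probe sets (0.0%), with 508 at an unadjusted p below 0.05, and array weights gave 4 calls. Among the genes described here, Gad1 stood at 0.99 in heterozygotes, against 0.90 in wild type, Slc12a2 at 1.37, against 1.25, Mt1 at 1.37, against 1.19, and Mvd at -0.88, against -1.20. Erdr1 stood at -0.33 in heterozygotes, against -3.34 in wild type, and Snrp1c-ps2 at 1.45, against -1.99, but the difference was not called for either (adjusted p = 0.383 and 0.102).

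**Figure D5:**
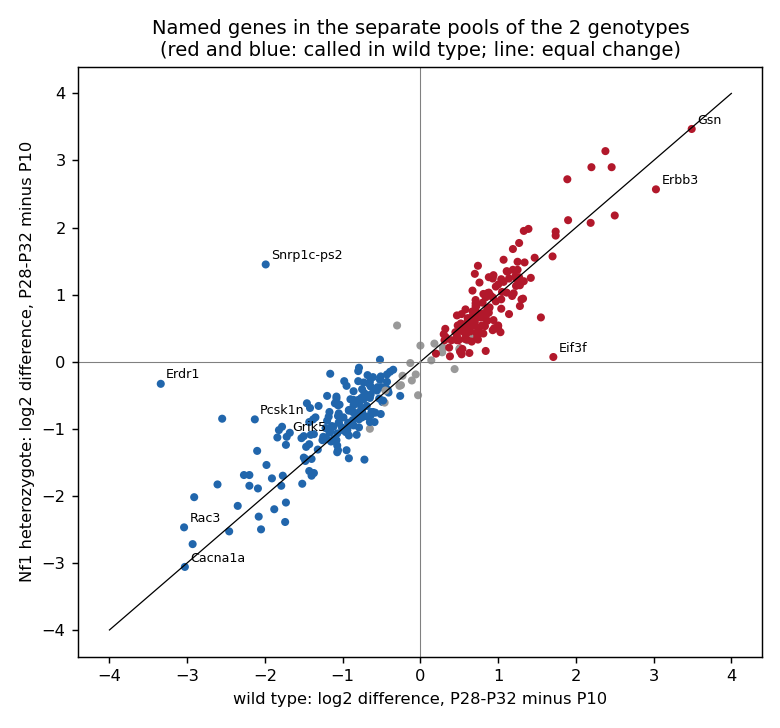
Difference between late and P10 pools (log2 scale) in heterozygotes (vertical) against wild type (horizontal) for the 335 named genes, with genes called in wild type in colour and a line where both changes are equal. Of these genes 330 share their sign, and Erdr1 and Snrp1c-ps2 lie farthest from the line.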

How the data were processed

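Hippocampal RNA of the 7 wild-type samples and the other samples of the series was read on single-colour arrays. Per the file headers, the deposited files hold a linear intensity for each probe set of each array, and the sources used here name no software for them. With 2% of values trimmed at each end, array means came to about 150.0. The authors had thus brought the arrays to 1 level by that mean, and the arrays were not normalized again. Array medians were not level, at 51.0 to 52.2 in the late pools, against 55.7 to 58.0 in the P10 pools. Rises made up 47.2% of the called probe sets, or 52.2% after quantile normalization. Intensities under 1 were raised to 1 before taking log2. The 66 controls were left out, as were the dimmest 40% of all remaining probe sets (below an intensity of 30.8), and 7453 were tested. Names came from the platform annotation, with 10833 probe sets having 1 symbol, 396 several and 1193 none, and 10817 matched RefSeq on GRCm38.p6. Positions are those of genes, not of probes. Precision is limited by how many arrays there were, and depth does not apply.

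Tests used limma 3.58.1 (lmFit and eBayes with an intensity trend, 2-sided, Benjamini-Hochberg over all probe sets tested, threshold 0.05) in R 4.3.3, with statmod 1.5.0, on all 30 samples with 1 mean per genotype and age. The fit was tested on simulated data. The members, the 46 families, the marker lists and the rule for named genes were chosen with earlier results of these data known. The rule named, in each family, up to 4 called genes with the largest rise and up to 4 with the largest fall, a set of subunits and markers whether called or not, and the 10 largest rises and 10 largest falls outside the myelin, astrocyte and immature neuron lists with a mean log2 of at least 7 in the higher group. Mt2 and Mt3 were added after their values were seen, as were marker genes named beside their list's count. The title codes were not used to pair the samples, since the sources do not explain them and P10 shares only 1b with the late groups. Between P28 and P32, equal codes had a correlation of deviations of 0.109. With 2 pools per age the deviations mirror each other, so this is a single value and cannot decide whether the codes pair samples. Promoters are RefSeq windows of 250 bases before to 50 after each gene start.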

Additional observations from a re-analysis of the deposited data

Results flagged for a closer look

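For 16 of the 335 named genes plotted by genotype, 1 of the 4 late pools stood apart from the other late pools. Its gap to the nearest pool exceeded what Dixon's test allows at the 95% level. Chance alone passes this test in about 5% of groups, and 16 of 335 is near that share. The genes are therefore listed as single readings, and the list does not show that any pool differed. In P32 pool 1a Snap25 was highest at 4142 and Ywhah at 3094, and Cnih2 was lowest at 490.1, Grik5 at 96.0, Cenpb at 48.6, Pafah1b3 at 46.6 and Nppa at 9.29. In P28 pool 1b Rhob was highest at 2712, Dlg3 at 256 and Pdgfb at 36.5, and Atf3 was lowest at 26.7 and Tie1 at 11.6. In P28 pool 1a Hpca was highest at 3533 and Csnk1a1 at 1207. In P32 pool 1b Scn1a was lowest at 394 and Slc12a4 at 91.0. Snap25, Cnih2, Grik5, Cenpb, Hpca and Scn1a were called in wild-type maturation with every pool left out in turn.

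The late ages differed by limma's test for 5 probe sets. The P32 minus P28 difference was 2.0 for Nnt, 0.74 for Anxa5 and -1.51 for Col7a1. It was -4.0 for a probe set with no single gene name, which measured 5.70 and 6.10 at P32, against 102 and 86.2 at P28, and -0.64 for another, which measured 627 and 546 at P32, against 908 and 917 at P28.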

How the results depend on the processing

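Wild-type maturation gave 2845 calls, and 1065 when only title number 1 was kept, which leaves 1 P10 pool. The other settings gave between 1906 (P28 alone) and 3256 (array weights) calls, among them 2458 with P32 alone, 1979 with the title code as a replicate block, 2536 when blocked on title number, 2799 with no filter, 2287 with the lowest 60% left out, 2858 with log2(value + 32), 2770 after quantile normalization, 3032 with wild-type libraries only, 2933 with the compared libraries only, 2810 with no intensity trend, 2872 with the Gapdh ratio and 2803 with the Actb ratio as a covariate. Leaving out single pools gave 2270 to 2607. The replicate block is a check of codes whose meaning the sources used here do not give.

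For the difference between genotypes, 0 probe sets were called, and 4 with array weights, 1 with no intensity trend, 1 with the replicate block and 0 to 2 without single pools (1 without P10 pool 1b, 2 without P10 pool 2a). For P32 minus P28, 5 were called, and 2 with no filter, 2 after quantile normalization, 3 with the replicate block and 0 to 4 without single pools. No named gene reversed under another fit, but 10 had another probe set of opposite sign or at 0 (Vamp2 -0.82; Ckmt1 -0.49; Srxn1 -0.47; Itpr2 -0.39; Tapbp -0.36 and -0.17; Gss -0.26; Fgfr2 -0.07; Peg3 -0.05; Cadm1 0.00; Junb 0.28); of these other probe sets that of Vamp2 was called, while Vamp2's brightest, at 0.18, was not. Calls of named genes were lost for 118 with title number 1 only, 53 with the replicate block, 51 with P28 alone, 30 with P32 alone and 20 when blocked on title number, and for 0 to 13 under each other setting over all pools. Dim genes shrink with log2(value + 32), as given beside them. The Actb ratio was added as a covariate after the data were seen.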
